A study of Arabidopsis thaliana with 4 samples.

Results

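Cytosolic ribosomal protein genes encode the protein part of the ribosomes that translate nuclear transcripts. A ribosome has a 40S subunit, which reads the mRNA, and a 60S subunit, which joins amino acids. In Arabidopsis each ribosomal protein is encoded by a small family of near-identical genes, called paralogs here, and their transcripts are abundant in dividing tissue such as young leaves. Mutants in single ribosomal protein genes are known for narrow or pointed first leaves and for enhancing defects of leaf polarity. The list examined holds 60 nuclear loci, 24 of the 40S and 36 of the 60S subunit. Genes were picked by locus, but with earlier results of these data known. They are part of a larger set, and a further 165 loci of the same protein families were kept as context.

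The 4 arrays are Affymetrix expression arrays of leaf primordia, the first set, harvested 7 days after sowing from plants grown at 22 °C in continuous light. Of these, 2 came from the mutant an3-4 and 2 from wild type (WT), both given as ecotype Col-0, and 10 µg of total RNA per sample was labelled. ANGUSTIFOLIA3 works with transcription factors to keep cells of young leaves dividing, and an3-4 is the one mutant allele studied. Whether replicate arrays came from separately grown plants is not in the labels. The spread between the 2 arrays of a genotype may therefore be technical. Each p-value rests on that spread and on the typical spread of probe sets at like signal.

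A probe set that the chip annotation gives to one gene alone was found for 34 of the 60 loci, 12 of 24 for the 40S and 22 of 36 for the 60S subunit, among 13286 genes so named on the whole chip. Another 8 loci were listed only beside other genes on shared probe sets. The annotation listed no probe set for 18, which were not analysed here. It names no gene for 8730 probe sets, so the chip may still carry probes for these loci. Most of the 18 carry a gene symbol, while of the 34 only PGY1 (AT2G27530) does. These 18 include PFL (AT1G22780), a gene of ribosomal protein S18 whose mutant has pointed first leaves, and SAC52 (AT1G14320), a gene of L10. All 34 genes with a probe set of their own passed the filter on dim probe sets. The signal is a linear MAS5 intensity, brought here to 1 trimmed mean of 155 for all arrays. As deposited, that mean was 143 for replicate 1 of each genotype and 169 for replicate 2 of each. Probe sets are not independent of each other, and the correlation of their log2 signals was 0.989 for the an3-4 pair, 0.988 for the WT pair and 0.968 to 0.969 between genotypes. Of the leaf primordium markers, 5 of 9 had a probe set of their own (PHV, YAB3, YAB5, JAG and SPT). Their summed signal was 960 to 970 on the an3-4 arrays and 893 to 995 on the WT arrays. PHV and YAB3 had the largest signals of the 5 and weigh most in this sum. In limma 0 of the 5 markers were called. At an unadjusted p under 0.05, 1 was higher in an3-4 (SPT, log2 fold change 0.37) and 1 lower (JAG, -0.57). The single measured root and meristem markers, EXPA7 and CLV3, stayed under the filter. AN3 itself had no probe set listed, so the mutated gene did not check the labels.

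Most ribosomal protein genes had slightly lower signals in an3-4 than in WT. The log2 fold change of an3-4 over WT was below 0 for 33 of the 34 genes, where 45.8% of all 13647 probe sets tested were below 0. The median was -0.11, a fold of 0.926, and the quartiles were -0.17 and -0.07. Over all probe sets tested the median was 0.02. Both an3-4 signals lay under both WT signals for 25 of the 34 genes (73.5%), against 23.9% of all probe sets tested. For no gene did both an3-4 signals lie above both WT signals, which 29.6% of all probe sets tested showed, and for 9 genes the genotypes overlapped. All 34 values come from the same 4 arrays and are not independent of one another.

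Single genes rarely passed the test. In limma, with Benjamini-Hochberg adjustment over all probe sets tested, 3 of the 34 genes (8.82%) had an adjusted p under 0.05 and were lower, against 5.78% of all probe sets, a share near that background. No gene was called higher in limma, where 6.57% of all probe sets were. At an unadjusted p under 0.05 the test gave 6 lower genes (background 10.9%) and 0 higher ones (background 13.9%). With signals as deposited, whose spread includes the offset between the arrays numbered 1 and 2, limma called 0 of the 34 genes, and 1.44% of all probe sets were called lower. With the replicate number as a block, limma called 4 genes lower, against 7.21% of all probe sets. Median centring in place of the trimmed mean kept 3 lower genes, but turned the 896 higher and 789 lower probe sets into 726 and 974. With 2 arrays per genotype, the smallest two-sided p of an exact permutation test is 0.333.

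**Figure D1:**
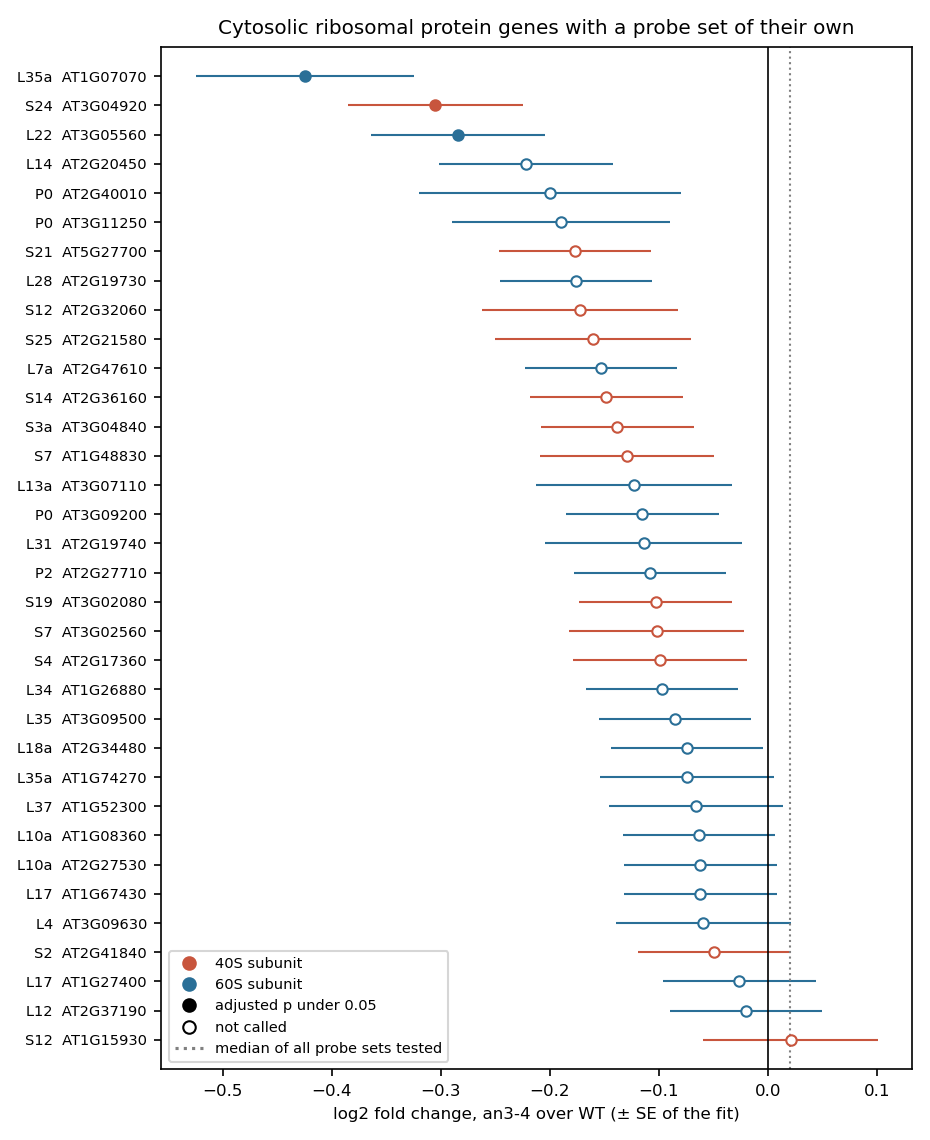
Log2 fold change of an3-4 over WT (horizontal axis) for the 34 ribosomal protein genes with a probe set of their own, with the SE of the limma fit as bars, 40S genes in red and 60S genes in blue. Filled points mark the 3 genes with an adjusted p under 0.05, the dotted line is the median of all probe sets tested at 0.02, and all genes but AT1G15930 lie left of 0.

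By array, the shift did not come from one sample alone. Each gene's log2 signal was set against its own mean over the 4 arrays. The mean deviation over the 34 genes was -0.09 and -0.038 on the an3-4 arrays (replicates 1 and 2), against 0.034 and 0.094 on the WT arrays. Below their own mean were 33 and 24 genes on the an3-4 arrays, against 9 and 2 on the WT arrays. an3-4 replicate 1 was thus the lowest array and WT replicate 2 the highest, and the genotypes did not overlap in this mean. The SD between arrays of a genotype was 0.0395. Without an3-4 replicate 1 the count of genes below 0 was 30 and the median -0.08, and without WT replicate 2 they were 33 and -0.08. Over all probe sets tested the mean deviations were 0.004 and 0.021 on the an3-4 arrays, against -0.011 and -0.015 on the WT arrays.

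**Figure D2:**
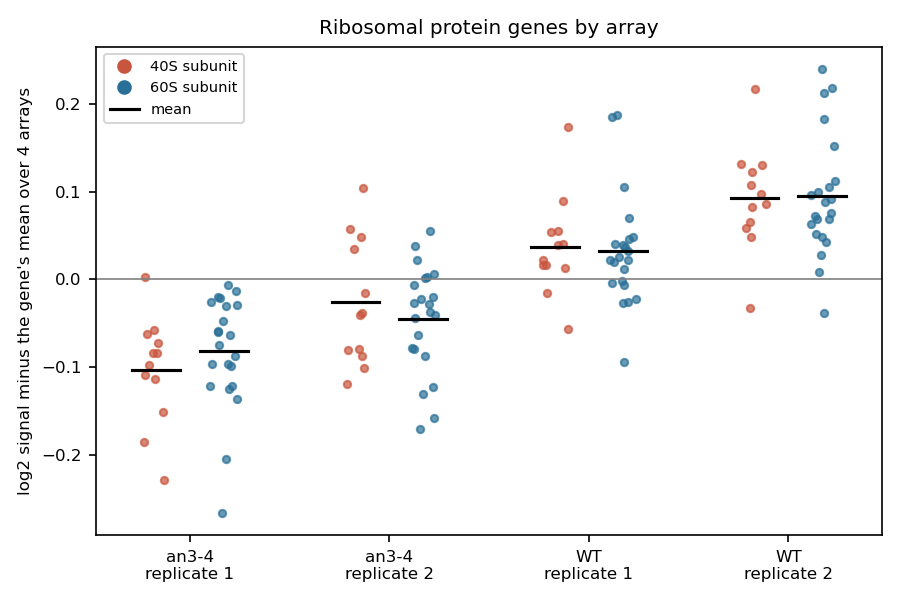
Log2 signal of each of the 34 genes minus its mean over the 4 arrays (vertical axis) by array, with 40S genes in red, 60S genes in blue and their means as black bars. The means of both subunits lie below 0 on both an3-4 arrays and above 0 on both WT arrays.

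The listed 40S and 60S genes had similar differences between the genotypes. The median log2 fold change was -0.13 over 12 genes of the 40S and -0.10 over 22 genes of the 60S subunit. Of these, 11 and 22 were below 0, and both an3-4 signals lay under both WT signals for 8 and 17 (background 23.9%). One 40S gene (8.33%) and 2 60S genes (9.09%) were called lower, shares near the background of 5.78%. The mean deviation of 40S genes minus that of 60S genes was -0.022 and 0.019 on the an3-4 arrays, against 0.005 and -0.002 on the WT arrays. This difference changes sign between arrays of the same genotype.

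Among 40S genes, 1 fell. AT3G04920, which encodes S24, a protein that human cells need to process the rRNA of the 40S subunit, had signals of 1333 and 1396 on the an3-4 arrays, against 1710 and 1660 on the WT arrays. The log2 fold change was -0.30 ± 0.08 (SE; limma adjusted p = 0.0171). The genotypes did not overlap. With eBayes without the intensity trend its adjusted p was 0.138, and it was 0.0443 to 0.119 over the limma fits that leave out 1 array.

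The other 40S genes did not pass over all probe sets. AT5G27700 for S21, a protein found in eukaryotic ribosomes only, had 3175 and 3214 in an3-4, against 3528 and 3696 in WT, with a log2 fold change of -0.18 and, in limma, an adjusted p of 0.134. AT2G36160, for S14 on the platform of the subunit, had 2573 and 2701 in an3-4, against 2953 and 2889 in WT. AT3G04840, for S3a, also a platform protein, had 3476 and 3421 in an3-4, against 3718 and 3870 in WT. In all of these the an3-4 signals lay below the WT signals, with log2 fold changes of -0.15 for S14 and -0.14 for S3a. AT2G21580 for S25, a head protein, had 950.4 and 940.8 in an3-4, against 961.5 and 1162 in WT, so that the size of its log2 fold change of -0.16 depends on WT replicate 2. AT3G02080 for S19, which human cells need to mature the 40S subunit, had 2705 and 2747 in an3-4, against 2934 and 2922 in WT (log2 fold change -0.10). AT2G17360 for S4 had 1767 and 1644 in an3-4, against 1784 and 1867 in WT (-0.10). For S19 and S4 both an3-4 signals lay under both WT signals, and neither gene was called in limma.

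The 2 genes each of S7 and S12 show how paralogs compare. For S7, AT1G48830 had 2358 and 2525 in an3-4, against 2590 and 2748 in WT, and AT3G02560 had 2628 and 3018 in an3-4, against 2952 and 3096 in WT. Their log2 fold changes were -0.13 and -0.10, and the genotypes overlapped for AT3G02560 only of this pair. For S12, a protein of the beak of the subunit, AT2G32060 had 1820 and 2220 in an3-4, against 2193 and 2338 in WT, a log2 fold change of -0.17. AT1G15930, the other S12 gene, had 3759 and 4283 in an3-4, against 4018 and 3893 in WT, and its 0.02 was the only value above 0, although it was -0.03 with median centring. For both S12 genes the genotypes overlapped. AT2G41840 for S2, which lies at the entry of the mRNA channel, had 3783 and 4109 in an3-4, against 3966 and 4196 in WT. This overlaps as well, at a log2 fold change of -0.05.

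Among 60S genes, 2 fell. AT1G07070, which encodes L35a, needed in human cells to mature the 60S subunit, had 277.6 and 299.1 in an3-4, against 379.6 and 394.2 in WT. At -0.42 ± 0.10 on the log2 scale, a fold of 0.745 (adjusted p = 0.00973 in limma), this was the largest difference of the 34. AT3G05560, which encodes the RNA-binding protein L22, had 2710 and 2960 in an3-4, against 3557 and 3341 in WT, which gave -0.28 ± 0.08 on the log2 scale (adjusted p = 0.0261 in limma). Neither gene overlapped between the genotypes. With eBayes without the trend the adjusted p was 0.0623 for AT1G07070 and 0.181 for AT3G05560. Over the limma fits that leave out 1 array it was 0.0246 to 0.0847 and 0.0314 to 0.203. Without any filter, AT1G07070 was the one call, since AT3G04920 then had a limma adjusted p of 0.0548 and AT3G05560 of 0.129.

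Next in size among 60S genes was AT2G20450 for L14, with 1027 and 1010 in an3-4, against 1130 and 1248 in WT, or -0.22 on the log2 scale (adjusted p = 0.102 in limma). AT2G19730 for L28, a protein that budding yeast lacks, had 3567 and 3608 in an3-4, against 4003 and 4101 in WT, or -0.18 on the log2 scale (adjusted p = 0.128 in limma). L28 showed little spread within each genotype. Its direct neighbour on the chromosome, AT2G19740 for L31 at the exit of the peptide tunnel, had 673.4 and 751.7 in an3-4, against 751.6 and 788.7 in WT. The genotypes barely overlapped for L31, at a log2 fold change of -0.11. AT2G47610 for L7a had 2915 and 3116 in an3-4, against 3269 and 3436 in WT, without overlap and with a log2 fold change of -0.15.

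The ribosomal stalk is the 60S arm that recruits translation factors, with P0 as its base protein and P1 and P2 bound to it. All 3 P0 genes were measured and had close log2 fold changes on very different signals. AT2G40010 had 162.6 and 147.4 in an3-4, against 171.6 and 184.4 in WT (-0.20). AT3G11250 had 529.2 and 503.5 in an3-4, against 542.6 and 638.8 in WT (-0.19). AT3G09200 had 4549 and 4970 in an3-4, against 5109 and 5191 in WT (-0.12). With 1 array left out, AT2G40010 ranged from -0.27 to -0.13, AT3G11250 from -0.31 to -0.07 and AT3G09200 from -0.18 to -0.05. The an3-4 signals lay below the WT signals in each of the 3, and none was called in limma, where their adjusted p ran from 0.251 to 0.362. AT2G27710 for P2 had 3352 and 3198 in an3-4, against 3475 and 3581 in WT (-0.11). AT2G37190 for L12, which binds beside the stalk, had 2968 and 2981 in an3-4, against 3020 and 3013 in WT, and at -0.02 it was the 60S gene nearest to 0.

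L10a forms the other, mobile arm of the 60S subunit. PGY1 (AT2G27530, PIGGYBACK1), the L10a gene whose mutant enhances leaf polarity defects, had 2873 and 2833 in an3-4, against 2861 and 3099 in WT. AT1G08360, also for L10a, had 2338 and 2321 in an3-4, against 2370 and 2498 in WT. Both had a log2 fold change of -0.06 ± 0.07 (SE), and PGY1 overlapped between the genotypes. For L17, which lines the peptide tunnel, AT1G67430 had 3833 and 4011 in an3-4, against 4061 and 4127 in WT. The second L17 gene, AT1G27400, had 2161 and 2140 in an3-4, against 2167 and 2213 in WT. These 2 genes had -0.06 and -0.03 and did not overlap. L4 lines the tunnel too, and its gene AT3G09630 had 3264 and 3583 in an3-4, against 3481 and 3647 in WT, an overlap at -0.06.

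The remaining 60S genes had small differences and, except for L35a, bright probe sets. AT3G07110 for L13a had 2695 and 2688 in an3-4, against 2630 and 3266 in WT, and its log2 fold change of -0.12 became 0.03 without WT replicate 2. AT1G26880 for L34 had 2174 and 2254 in an3-4, against 2330 and 2406 in WT (-0.10). AT3G09500 for L35, at the tunnel exit, had 2539 and 2704 in an3-4, against 2768 and 2789 in WT (-0.08). L34 and L35 were lower on both an3-4 arrays. AT1G74270, the second L35a gene, had 731.6 and 725.0 in an3-4, against 734.2 and 800.9 in WT (-0.07, or -0.01 without WT replicate 2). AT2G34480 for L18a had 4267 and 4328 in an3-4, against 4478 and 4572 in WT (-0.07). AT1G52300 for L37, a zinc-binding protein, had 4327 and 4894 in an3-4, against 5064 and 4584 in WT (-0.07). L37 overlapped between genotypes, while L35a and L18a did not.

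Signals of different probe sets depend on their probes and are not set against each other as transcript levels. On the chip the 34 genes gave signals from 147 to 5190. Mean log2 signal and log2 fold change correlated at 0.52 (Pearson) and 0.43 (Spearman) over the 34 genes, a description across genes on the same 4 arrays. The correlation was weaker over the 83 further loci tested, at 0.21 and 0.38, and over all 117 ribosomal protein genes tested, at 0.26 and 0.40. Of the 25 genes with a mean signal of at least 2000, 24 were below 0, with a median of -0.10. The 294 other tested probe sets at that signal, leaving out those listed for any locus of these families, shared ones included, had a median of 0.02, and 42.5% of them were below 0. From 1000 to 2000 the other probe sets leaned lower too, with a median of -0.03 and 59.9% below 0. All 3 listed genes in that band were below 0, with a median of -0.22.

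**Figure D3:**
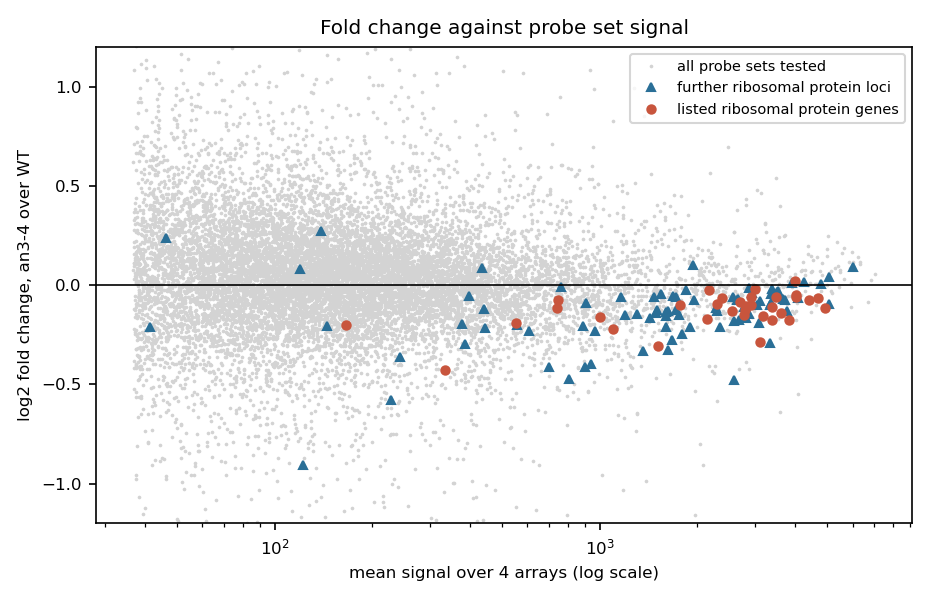
Log2 fold change of an3-4 over WT (vertical axis) against the mean signal over 4 arrays (horizontal axis, log scale) for all probe sets tested in grey, the 34 listed genes as red circles and 83 further ribosomal protein loci as blue triangles. Most ribosomal protein genes with a mean signal of at least 200 lie below 0, while 3 of the 6 further loci under 200 do, and 142 probe sets beyond a log2 fold change of 1.2 in size are not drawn.

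Probe sets shared between near-identical copies cannot be given to one gene. There were 9 of them that list one of the 60 loci, and their log2 fold changes ran from -0.64 to 0.02 with a median of -0.05. In limma 1 of the 9 was called, where 5.78% of all probe sets tested were called lower and 6.57% higher. Probe set 245841_s_at, which lists 4 genes, among them an S2 locus of the list, had 2859 and 2899 in an3-4, against 4583 and 4373 in WT. This is -0.64 ± 0.07 on the log2 scale (adjusted p = 5.08e-05 in limma), a larger difference than in any of the 34 genes with their own probe set. It was also called with signals as deposited (limma adjusted p = 0.0457) and in each fit that leaves out 1 array, with adjusted p from 3.40e-04 to 0.00112. The S2 gene with its own probe set, AT2G41840, had -0.05, and AT3G57490, a further S2 locus, had 0.09, with 453.4 and 443.4 in an3-4, against 507.9 and 349.9 in WT. The 3 probe sets of S2 therefore gave different values, and the difference between them was not tested.

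The further loci of the same families, outside the list of 60, were mostly lower as well. Of the 165, 97 had a probe set of their own and 83 passed the filter. Their median log2 fold change was -0.13, 73 of 83 were below 0, and both an3-4 signals lay under both WT signals for 59 (background 23.9%). By subunit the median was -0.17 over 30 genes of the 40S and -0.11 over 53 genes of the 60S, a difference that was not tested. In limma 10 of the 83 were lower (background 5.78%) and 0 higher (background 6.57%). At an unadjusted p under 0.05 these counts were 26 and 0 (background 10.9% and 13.9%). With the replicate number as a block, limma called 19 lower (background 7.21%). The 4 with the smallest p were AT1G23410, AT5G35530, AT3G16780 and AT3G55170. AT1G23410, a gene of S27a, which is made as a fusion with ubiquitin, had 88.62 and 90.1 in an3-4, against 157.7 and 177.4 in WT, or -0.90 ± 0.13 on the log2 scale (adjusted p = 3.76e-04 in limma). It was the single one of these 83 called with signals as deposited (limma adjusted p = 0.0214). AT5G35530 for S3, which helps to hold the mRNA at its entry, had 2135 and 2246 in an3-4, against 3033 and 3060 in WT, a log2 fold change of -0.48 ± 0.07. Shared probe set 263400_s_at lists 2 genes, among them the S3 locus of the list. It had 2683 and 2670 in an3-4, against 2696 and 2831 in WT (-0.05 on the log2 scale, limma adjusted p = 0.757). AT3G16780 for L19 had 650.5 and 716.5 in an3-4, against 930.5 and 963.1 in WT (-0.47 ± 0.08). The listed L19 gene had no probe set listed. The other measured L19 gene, AT4G02230, had 1499 and 1554 in an3-4, against 1560 and 1583 in WT (-0.04, limma adjusted p = 0.788).

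Paralogs of one family mostly had log2 fold changes of the same sign. The 34 genes fall into 27 families, each of which had at least 2 measured genes when the further loci were added, 70 genes in all. In 23 of the 27 families every measured gene was below 0. Over all ribosomal protein genes tested, 106 of 117 were below 0. Shared signs within a family therefore do not set paralogs apart from the other ribosomal protein genes. The spread between the highest and lowest log2 fold change of a family was 0.12 at the median and ran from 0.04 to 0.49. In 5 families some genes were called and others were not, and in 1 family, L22, all were. The second L22 gene, AT5G27770, had 1629 and 1668 in an3-4, against 1931 and 1984 in WT (log2 fold change -0.25, limma adjusted p = 0.0426), beside -0.28 for AT3G05560. Its call was lost in each limma fit that leaves out 1 array, with adjusted p from 0.0961 to 0.190.

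The widest spread of the 27 families, 0.49, was that of L35. Against -0.08 for AT3G09500 stood -0.58 ± 0.10 for AT3G55170, -0.41 ± 0.08 for AT5G02610 and -0.41 ± 0.08 for AT2G39390, all 3 called (limma adjusted p = 0.00245, 0.00419 and 0.00461). AT3G55170 had 195.6 and 179.3 in an3-4, against 280.4 and 277.9 in WT. AT5G02610 had 752.7 and 809.1 in an3-4, against 1055 and 1025 in WT. The L35 gene with the brightest probe set thus had the value nearest to 0. In L13a, AT5G48760 fell, with 821.3 and 821.4 in an3-4, against 1039 and 1129 in WT (-0.40 ± 0.08, limma adjusted p = 0.00525), beside -0.12, -0.06 and -0.03 for the other 3 measured genes. In L35a, AT1G07070 had -0.42 beside -0.07 for AT1G74270, and in S14 AT3G52580 fell (-0.27, limma adjusted p = 0.0361) beside -0.15 for AT2G36160. Over the limma fits that leave out 1 array, the adjusted p was 0.0406 to 0.225 for AT3G52580 and 0.0101 to 0.0524 for AT5G48760, while the 3 called L35 genes stayed called, with a highest value of 0.0435. In 17 of the 27 families the gene with the dimmest probe set had the lowest log2 fold change. The families hold 2 to 4 measured genes each, so many such cases would arise under a random order as well. Whether paralogs differ from each other was not tested, and probe sets of near-identical paralogs can pick up each other's transcripts.

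**Figure D4:**
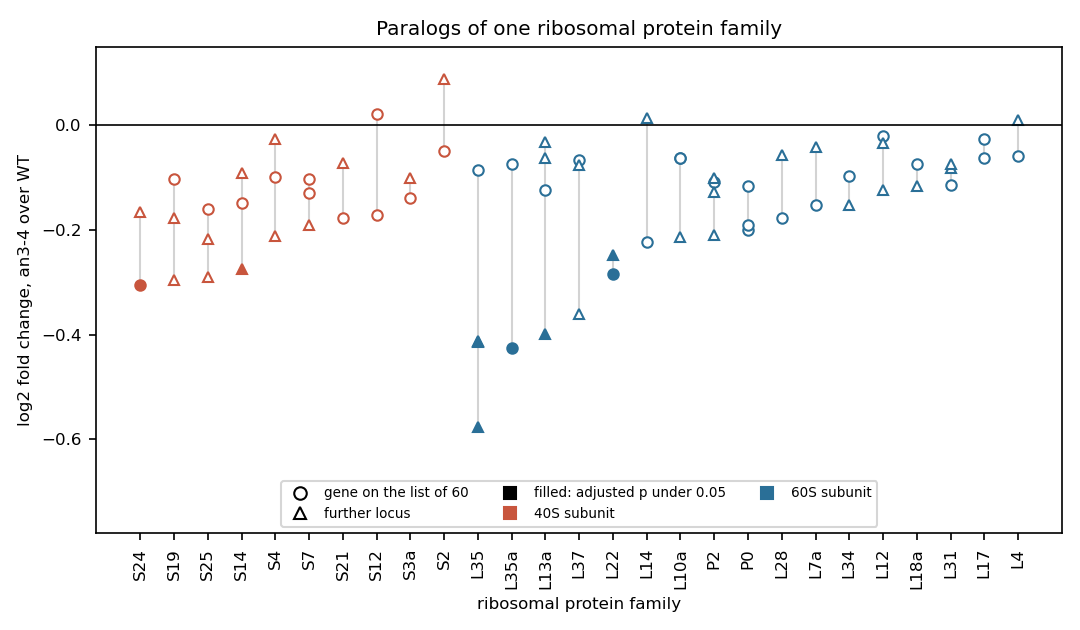
Log2 fold change of an3-4 over WT (vertical axis) for each measured gene of the 27 ribosomal protein families that include a listed gene (horizontal axis), with listed genes as circles, further loci as triangles, 40S in red, 60S in blue and filled symbols for an adjusted p under 0.05. L35, with values from -0.58 to -0.08, has the widest spread, and 4 families hold a gene above 0.

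Other genes of the translation machinery were sparsely measured. Of 29 ribosome biogenesis genes, which act in the nucleolus to assemble the subunits, 14 were tested with a median log2 fold change of -0.07. Of those, 10 were below 0 (background 45.8%), 0 were called in limma (background 5.78% lower and 6.57% higher) and 1 was lower at an unadjusted p under 0.05, which is near the background of 10.9%. That was AT3G22660, with 154.6 and 155.5 in an3-4, against 167.9 and 211.9 in WT (-0.28 ± 0.13 on the log2 scale, adjusted p = 0.191 in limma). Of 33 cytosolic translation factors, 5 were tested with a median of -0.06, and 0 were called in limma or at an unadjusted p under 0.05. Of 31 nuclear genes of plastid ribosomal proteins, 5 were tested, with values from -0.11 to 0.07, a median of -0.01 and 0 calls in limma, also at an unadjusted p under 0.05.

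A measure of RNA integrity differed between the genotypes in part of its control pairs. The array carries 6 pairs of control probe sets that read a housekeeping transcript (actin, GAPDH or ubiquitin) near each end. The log2 ratio of 3' over 5' signal was higher on both an3-4 arrays for 3 of them, with the genotypes overlapping in the other 3. The higher ones were both ubiquitin pairs and an actin pair, and neither GAPDH pair was among them. Pairs that read the same transcript are not independent. The differences of an3-4 minus WT ran from -0.02 to 0.23. Their part in the lower signals of ribosomal protein genes was not tested. In bulk tissue, fewer dividing cells and less transcript per cell cannot be told apart.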

How the data were processed

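The authors deposited 1 linear signal intensity per probe set and array, made with MAS5 per the submitters' processing notes. That algorithm corrects for background and mismatch probes, then scales whole arrays, and neither its settings nor its version is stated in the labels. As deposited, arrays numbered 1 and arrays numbered 2 had different trimmed means (2% trimmed from each end), so each array was multiplied to their geometric mean. This choice was made with earlier results of these data known, as were the gene list, the further loci and the other lists.

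Log2 signals were tested in limma 3.58.1 under R 4.3.3 (lmFit, eBayes with an intensity trend, genotype as the only term). The 64 control probe sets and, by mean log2 signal, the dimmest 40% of the others were not tested, leaving 13647 of 22810. A call is a Benjamini-Hochberg adjusted p under 0.05. The array number limits precision: limma had 2 arrays a genotype and an estimated 11.1 prior degrees of freedom. The scripts were tested on simulated data.

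Names came from the platform annotation, whose gene identifiers were looked up among RefSeq loci (TAIR10.1). Of the probe sets, 13513 carried 1 gene, 503 several and 8730 none. Names from several genes were not used. Protein families follow the established Arabidopsis nomenclature, since the annotation gives most loci without a name. Named were the called genes, then those with the largest log2 fold change, then all in families with at least 2 measured genes, which covers all 34. From other lists up to 4 called genes, or else those with the smallest p, were named, and paralogs of listed genes were described after their values were seen. Alternatives were signals as deposited, median centring, quantile normalization, an offset of 32, a 60% filter, no filter, eBayes without the trend, the replicate number as a block and leaving out each array. The comparison with other probe sets of like signal was added after the data were examined.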

Additional observations from a re-analysis of the deposited data

How the results depend on the processing

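The median log2 fold change of the 34 genes stayed below 0 in every alternative run, and no gene was called higher in limma in any of them. With median centring, which moved the median of all probe sets tested to -0.03, it was -0.16, with -0.18 for 40S and -0.15 for 60S genes and AT1G15930 at -0.03. The count of 3 lower genes became 0 with signals as deposited, 1 without a filter and 0 with eBayes without the trend, and ran from 0 to 3 when 1 array was left out, fits in which the single remaining array of a genotype borrows its spread from the other pair. It was 0 without an3-4 replicate 1 or without WT replicate 2, 1 without WT replicate 1, and 3 without the second an3-4 array. The labels do not say that replicate numbers pair the arrays, and deviations of same-numbered arrays correlated at 0.0353. With the replicate block 4 genes were lower in limma, AT2G20450 in addition (adjusted p = 0.0419). Over all probe sets, 896 higher and 789 lower became 197 and 196 with signals as deposited and 545 and 445 with eBayes without the trend, 1170 and 984 with the replicate block, and 473 to 683 and 498 to 563 with 1 array left out. Genes that changed sign with 1 array left out ranged from -0.07 to 0.12 for AT1G15930, -0.16 to 0.02 for AT1G52300, -0.28 to 0.03 for AT3G07110, -0.11 to 0.01 for AT2G41840 and -0.13 to 0.01 for AT3G09630. Each of the 34 genes had 1 probe set, so a mean over probe sets changed nothing. The causes of these changes were not tested.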
